A study of Mus musculus with 16 samples.

Results

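Macrophages and related myeloid cells were followed in mouse kidney cortex through 34 genes, which were taken by name as macrophage growth factors, receptors, adhesion molecules and effector proteins. Earlier results of these data were known when they were chosen. All 34 were found among the 22180 genes that the array annotation names singly, each with 1 probe set. RNA came from 3-month-old mice of 4 genotypes, with 4 arrays for each: wild type of the strain C57BL/6, Vhl F/F;Ksp-Cre mice (Vhl mutants), Pbrm1 F/F;Ksp-Cre mice (Pbrm1 mutants) and mice with both floxed genes and Ksp-Cre (double mutants). All mutants were on a mixed background of C57BL/6, BALB/c and 129, so every comparison with wild type also compares strains. Ksp-Cre drives the Cre recombinase from the Cdh16 promoter in kidney tubule epithelium, not in macrophages, and the alleles are therefore not designed to be deleted in the cells that these 34 genes mark. The product of Vhl is the substrate receptor of a ubiquitin ligase that targets hypoxia-inducible factors to the proteasome, and that of Pbrm1 is the polybromo protein of the PBAF chromatin remodelling complex. The study asked which early transcriptional changes follow their loss, as both genes are often lost in clear cell renal cell carcinoma.

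Kidney macrophages form a network around the tubules, kept by local renewal and by monocytes that enter from blood. The receptor Csf1r, which binds the growth factors Csf1 and Il34, is needed for their survival, and the transcription factor PU.1, encoded by Spi1, sets up their gene programme. They take up debris and antibody-coated particles through scavenger receptors and Fc receptors, signal through adaptors that carry an immunoreceptor tyrosine-based activation motif (ITAM), adhere through beta-2 integrins, degrade cargo in lysosomes and make superoxide with the phagocyte NADPH oxidase.

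Values are on the log2 scale, as summarised per probe set with the RMA method. The array medians lay between 5.18 and 5.27, and a level below 3.72, the highest lower quartile of any array, was taken as background. Msr1 and Lst1 were below it on average in every group and Fcgr4 in Pbrm1 mutants, so they are given as levels with no fold there. Whether each array of a group had an animal of its own is not in the labels. Each group carries 2 description numbers, and each array also has an unexplained letter, L or R. The p-values therefore rest on a spread over arrays that could be technical. Neither targeted gene set the groups apart on its own probe set: Vhl had a mean of 6.34 ± 0.15 (SD, n = 4) in wild type, 6.28 ± 0.02 in Vhl mutants, 6.26 ± 0.04 with Pbrm1 deleted and 6.22 ± 0.20 with both deleted. Pbrm1 had 8.19 ± 0.05, 8.13 ± 0.14, 8.19 ± 0.04 and 8.13 ± 0.08 in the same order. Whether these probe sets cover the deleted exons is not given in the sources used here, so they do not check the labels. Proximal tubule and distal nephron markers, 12 of each, were all above background. Fat markers were raised in 4 arrays, with a list median of log2 differences from the wild-type mean of 0.49 in Vhl mutant replicate 2, 0.65 in Pbrm1 mutant replicate 3, 0.49 in double mutant replicate 2 and 0.66 in replicate 3. The description numbers of the Vhl mutants lie above all others, so a batch that follows them cannot be told apart from that genotype.

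Most of the macrophage genes were higher in both groups that lack Vhl, and 1 passed the test as lower in mice that lack Pbrm1 alone. In Vhl mutants 19 of the 34 rose against wild type and 0 fell, where 2.04% of all genes rose and 1.79% fell (limma, Benjamini-Hochberg adjusted p under 0.05 over all genes). In double mutants 24 rose and 0 fell, against 6.64% and 5.56% of all genes. In Pbrm1 mutants 0 rose and 1, Fcgr2b, fell, against 1.59% and 2.45%. At an unadjusted p under 0.05, 26 of the 34 were higher and 0 lower in Vhl mutants, 27 and 0 in double mutants, and 1 and 5 in Pbrm1 mutants. With the arrays averaged per description number, which leaves 2 values a group, 11 of the 19 calls of Vhl mutants and 20 of the 24 of double mutants remained. The calls lost in Vhl mutants were those of Cybb, Lgals3, Itgam, Itgax, Itgb2, Cd52, Fcgr1 and Tyrobp (adjusted p from 0.0706 to 0.218), and those lost in double mutants were Il34, Csf1, Fcgr2b and Fcgr3 (0.0509 to 0.133). The median log2 difference from wild type over the 34 genes was 0.57 in Vhl mutants and 0.70 in double mutants, against -0.10 when Pbrm1 alone was deleted, while over all genes it was -0.01, -0.02 and -0.01. These comparisons share the wild-type arrays. In a bulk sample, more cells of a type and more RNA per cell cannot be told apart.

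**Figure D1:**
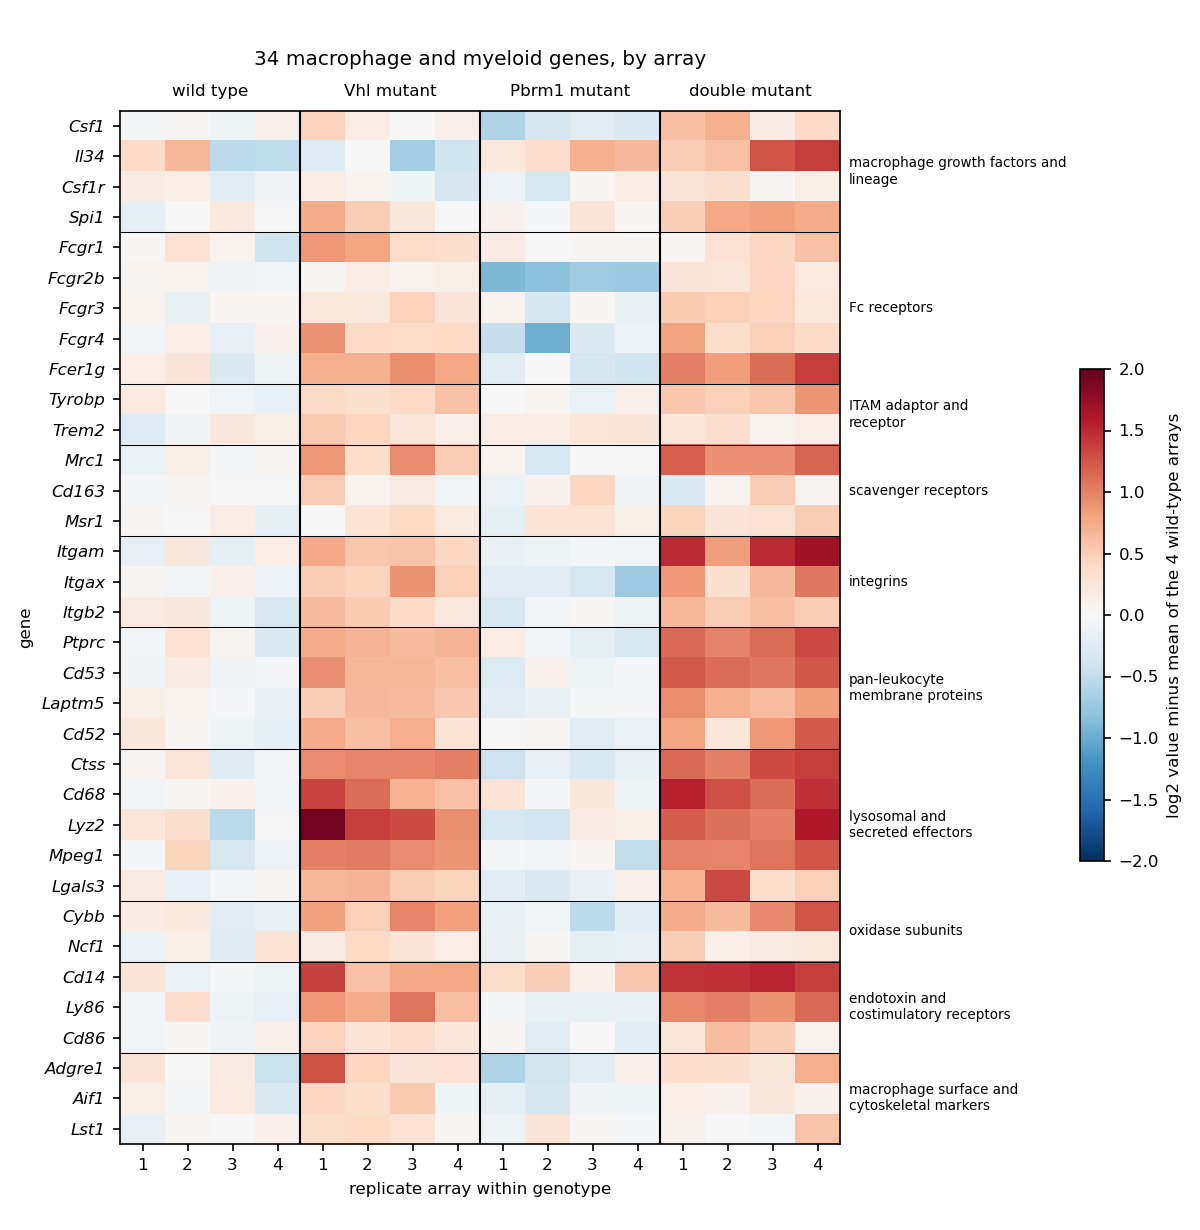
Log2 value of each of the 34 genes on each of the 16 arrays minus the mean of the 4 wild-type arrays, with genes in rows ordered by role and arrays in columns ordered by genotype. Red cells are above and blue cells below the wild-type mean; most rows are red in the Vhl and double mutant blocks, and Fcgr2b is blue on all 4 Pbrm1 mutant arrays.

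Taken gene by gene, all 4 Vhl mutant arrays were above all 4 wild-type arrays for 22 of the 34 genes, where 5.07% of all genes were so separated, and all 4 double mutant arrays for 24 (9.21% of all genes). The Pbrm1 mutant arrays were all below wild type for 3 (6.85%). The median log2 difference of the 34 genes from the wild-type mean lay between 0.60 and 0.79 on the double mutant arrays, between 0.36 and 0.69 on the Vhl mutant arrays, between -0.14 and -0.03 on the Pbrm1 mutant arrays and between -0.06 and 0.07 on the wild-type arrays. Counted 1 array at a time, each of the 4 double mutant arrays exceeded the highest wild-type array for 29 of the 34 genes. For the Vhl mutant arrays this held for 29, 32, 29 and 25 genes, and for the Pbrm1 mutant arrays for 2, 4, 6 and 2. The double mutants had the highest group mean for 26 genes and the Vhl mutants for the other 8, and the lowest mean was in Pbrm1 mutants for 24 genes and in wild type for 9. Neither these counts nor those by single array were made over all genes, so no background share stands beside them. Within groups the genes moved together only weakly. Over the 561 pairs of genes, the correlation of deviations from the group means across the 16 arrays had a median of 0.15 (quartiles -0.07 and 0.35), and genes on an array share its RNA and labelling. Vhl mutant replicate 1 was the highest of its group for 17 genes and replicate 4 the lowest for 18, and among double mutants replicate 4 was the highest for 17.

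All 5 lysosomal and secreted effectors rose in Vhl mutants and in double mutants, and 0 of 5 passed the test in Pbrm1 mutants. The share of all genes that rose was 2.04% in Vhl mutants, 6.64% in double mutants and 1.59% in Pbrm1 mutants, where 2.45% fell. Lyz2, the lysozyme of myeloid cells, was 6.71, 6.78, 5.92 and 6.45 on the wild-type arrays, 8.39, 7.85, 7.77 and 7.39 in the Vhl mutants, 6.14, 6.09, 6.62 and 6.58 in the Pbrm1 mutants and 7.68, 7.56, 7.47 and 8.07 in double mutants. Every Vhl and double mutant array was above every wild-type and Pbrm1 mutant array, while these last overlapped. The log2 difference of Lyz2 from wild type was 1.38 ± 0.20 (SE, n = 4 arrays a group) in Vhl mutants (2.61-fold higher, adjusted p = 0.000338) and 1.24 ± 0.20 in double mutants (2.37-fold higher, adjusted p = 0.000259). Between double and Vhl mutants it was -0.14, with a 95% interval of -0.57 to 0.29.

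Cathepsin S, encoded by Ctss, is a lysosomal protease that trims the invariant chain of MHC class II in antigen-presenting cells. Its values were 6.76, 6.95, 6.47 and 6.64 in wild type, 7.64, 7.67, 7.68 and 7.71 when Vhl was deleted, 6.29, 6.53, 6.39 and 6.55 when Pbrm1 was and 7.83, 7.71, 8.01 and 8.08 when both were. It had the smallest spread of the 34 genes among the Vhl mutant arrays, whose values ran from 7.64 to 7.71. Against wild type it rose by 0.97 ± 0.10 in Vhl mutants (adjusted p = 1.19e-05) and by 1.21 ± 0.10 in double mutants (adjusted p = 6.15e-08), and was at -0.26 ± 0.10 in Pbrm1 mutants (adjusted p = 0.181).

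Cd68, a heavily glycosylated protein of macrophage lysosomes that is widely used to stain them, was 5.96, 6.05, 6.10 and 5.97 in wild type, 7.38, 7.14, 6.72 and 6.61 in Vhl mutants, 6.29, 5.99, 6.25 and 5.94 with Pbrm1 deleted and 7.58, 7.30, 7.14 and 7.49 with both deleted. It rose by 0.94 ± 0.14 in Vhl mutants (1.92-fold, adjusted p = 0.000492) and by 1.36 ± 0.14 in double mutants (2.57-fold, adjusted p = 1.33e-06). The double mutants were 0.42 above the Vhl mutants, which did not pass the test (adjusted p = 0.0944) but did without Vhl mutant replicate 1, the highest of its group (adjusted p = 0.0152). Mpeg1, a pore-forming protein of phagocytic vacuoles, rose by 0.97 ± 0.14 in Vhl mutants and 1.08 ± 0.14 in double mutants, with no overlap with wild type. Lgals3, a galactose-binding lectin that injured tubule cells also make, rose by 0.58 ± 0.16 in Vhl mutants (adjusted p = 0.0499) and by 0.70 ± 0.16 in double mutants, where replicate 2, one of the arrays with raised fat markers, stood at 7.05 against 6.08 to 6.42 for the others. The Vhl mutant call of Lgals3 was lost without any 1 of 12 arrays (each wild-type and Vhl mutant array, Pbrm1 mutant replicates 1, 2 and 3 and double mutant replicate 1), with adjusted p up to 0.119.

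**Figure D2:**
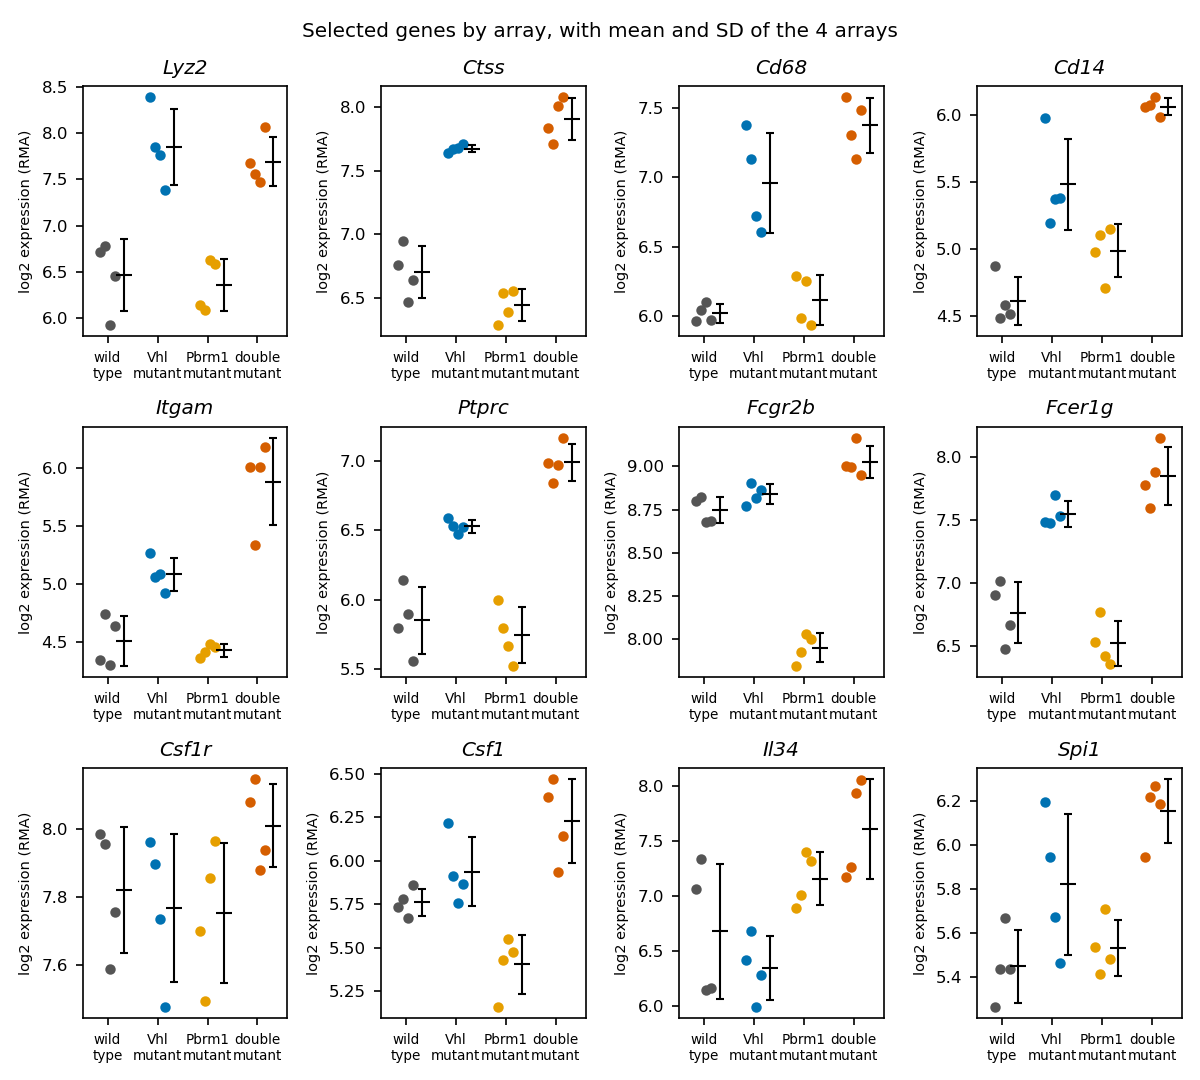
Log2 values of 12 of the 34 genes on each array, 1 panel a gene, with the 4 genotypes on the horizontal axis, points for arrays and a bar for the mean and SD of the 4 arrays of a group. Lyz2, Ctss, Cd68, Cd14, Itgam and Ptprc are higher in Vhl and double mutants, Fcgr2b is lower in Pbrm1 mutants only, and Il34 runs from 6.15 to 7.34 within wild type.

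All 4 pan-leukocyte membrane proteins rose in Vhl mutants and in double mutants, where 2.04% and 6.64% of all genes rose. Ptprc encodes CD45, the receptor phosphatase of all nucleated blood cells. It was 5.80, 6.15, 5.90 and 5.56 in wild type, 6.59, 6.53, 6.48 and 6.53 in the Vhl mutants, 6.0, 5.80, 5.67 and 5.52 in the Pbrm1 mutants and 6.99, 6.84, 6.97 and 7.16 in double mutants, so the double mutant arrays were above all others and the Vhl mutant arrays above both remaining groups. Its difference from wild type was 0.68 ± 0.12 in Vhl mutants (adjusted p = 0.0019) and 1.15 ± 0.12 in double mutants (adjusted p = 1.13e-06). Cd53, a tetraspanin of leukocytes, was 6.02, 6.24, 6.02 and 6.06 in wild type, 7.0, 6.75, 6.75 and 6.69 when Vhl was deleted, 5.81, 6.16, 5.98 and 6.06 when Pbrm1 was and 7.31, 7.20, 7.15 and 7.32 when both were, again with the double mutants above all other arrays. Cd53 rose by 0.71 ± 0.10 (adjusted p = 0.00015) in Vhl mutants and by 1.16 ± 0.10 (adjusted p = 5.13e-08) in double mutants. Laptm5, a lysosomal membrane protein of blood cells, rose by 0.58 ± 0.09 and 0.78 ± 0.10, and Cd52, a small surface glycoprotein of leukocytes, by 0.59 ± 0.16 (adjusted p = 0.0469) and 0.80 ± 0.16. The call of Cd52 in Vhl mutants was lost without any 1 of 12 arrays, all except wild-type replicate 1, Vhl mutant replicate 4 and double mutant replicates 2 and 4, with adjusted p up to 0.12.

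All 3 integrin genes rose in both Vhl-deficient groups, where 2.04% (Vhl mutants) and 6.64% (double mutants) of all genes rose. Itgam encodes CD11b, the alpha chain that pairs with the beta-2 chain on monocytes, macrophages and neutrophils. It was 4.35, 4.74, 4.31 and 4.65 in wild type, 5.27, 5.06, 5.09 and 4.93 in Vhl mutants, 4.36, 4.41, 4.48 and 4.46 with Pbrm1 deleted and 6.01, 5.34, 6.01 and 6.18 with both deleted. Every double mutant array was above every Vhl mutant array, and these were above every wild-type and Pbrm1 mutant array. The difference from wild type was 0.57 ± 0.16 in Vhl mutants (1.49-fold, adjusted p = 0.043) and 1.39 ± 0.16 in double mutants (2.61-fold, adjusted p = 3.51e-06). Itgax, which encodes CD11c of dendritic cells and many kidney macrophages, rose by 0.58 ± 0.16 (adjusted p = 0.0398) and 0.74 ± 0.16 (adjusted p = 0.00291). Itgb2, the shared beta-2 chain CD18, rose by 0.44 ± 0.12 (adjusted p = 0.0437) and 0.57 ± 0.12 (adjusted p = 0.00289).

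The Vhl mutant calls of the integrins were close to the threshold. The call of Itgam was lost without wild-type replicate 1 or 3, any of Vhl mutant or Pbrm1 mutant replicates 1, 2 and 3, or double mutant replicate 3 (adjusted p up to 0.124). That of Itgax was lost without wild-type replicate 1, 2 or 4, Vhl mutant replicate 1, 2 or 3, or double mutant replicate 3 (up to 0.125). That of Itgb2 was lost without wild-type replicate 3 or 4, Vhl mutant replicate 1, 2 or 3, Pbrm1 mutant replicate 2 or 4, or any double mutant array (up to 0.123).

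Of the 5 Fc receptor genes, 2 rose in Vhl mutants and 3 in double mutants, where 2.04% and 6.64% of all genes rose. Fcer1g encodes the common gamma chain through which activating Fc receptors signal. It was 6.90, 7.01, 6.47 and 6.66 in wild type, 7.48, 7.47, 7.70 and 7.53 in the Vhl mutants, 6.53, 6.77, 6.42 and 6.36 in the Pbrm1 mutants and 7.77, 7.60, 7.88 and 8.14 in double mutants, with a rise of 0.78 ± 0.12 in Vhl mutants (adjusted p = 0.000833) and of 1.10 ± 0.13 in double mutants (adjusted p = 3.9e-06). Fcgr1, the high-affinity IgG receptor CD64, rose by 0.58 ± 0.16 in Vhl mutants (adjusted p = 0.0391) and was at 0.34 ± 0.16 in double mutants (adjusted p = 0.199). The call of Fcgr1 was lost without wild-type replicate 1 or 4, Vhl mutant replicate 1 or 2, or double mutant replicate 3 (adjusted p up to 0.114). Fcgr3, a low-affinity activating receptor, was at 0.28 ± 0.11 in Vhl mutants (adjusted p = 0.197) and rose by 0.40 ± 0.11 in double mutants (adjusted p = 0.0258), a call lost without wild-type replicate 2 or double mutant replicate 1, 2 or 3 (up to 0.0679). Fcgr4, the murine activating receptor related to human CD16, was 4.03, 4.21, 3.92 and 4.17 in wild type, 4.98, 4.47, 4.45 and 4.48 when Vhl was deleted, 3.63, 3.10, 3.79 and 3.97 when Pbrm1 was and 4.88, 4.43, 4.55 and 4.47 when both were. All 8 Vhl and double mutant arrays of Fcgr4 were above all wild-type arrays, but its differences of 0.51 ± 0.17 and 0.50 ± 0.17 did not pass the test (adjusted p = 0.108 and adjusted p = 0.0692). That of the double mutants did without Vhl mutant replicate 1 (0.043) or Pbrm1 mutant replicate 2 (0.0292).

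Fcgr2b went its own way. It encodes the inhibitory Fc gamma receptor, which carries an inhibitory motif in place of the ITAM and is also made by B cells and by some endothelium. It was 8.80, 8.82, 8.68 and 8.69 in wild type, 8.77, 8.90, 8.82 and 8.86 in Vhl mutants, 7.85, 7.93, 8.03 and 8.0 with Pbrm1 deleted and 9.0, 9.0, 9.16 and 8.95 with both deleted. All 4 Pbrm1 mutant arrays lay below all others. Against wild type Fcgr2b fell by 0.79 ± 0.06 in Pbrm1 mutants (1.74-fold lower, adjusted p = 1.62e-07), and this call held without any 1 array. In Vhl mutants it was at 0.09 ± 0.06 (adjusted p = 0.529), and in double mutants it rose by 0.28 ± 0.07 (adjusted p = 0.00645). Between double and Pbrm1 mutants, whose labels name the same strains, it differed by 1.07 ± 0.07 (2.10-fold, adjusted p = 7.42e-10). Endothelial markers moved in the same comparison: 2 of 14 fell in Pbrm1 mutants, Kdr by 0.33 ± 0.08 (adjusted p = 0.0157; 0.0515 without wild-type replicate 4 and 0.0502 without Pbrm1 mutant replicate 4) and Flt1 by 0.25 ± 0.07 (adjusted p = 0.0382, up to 0.125 without any wild-type array, Pbrm1 mutant replicate 1, 2 or 4 or double mutant replicate 3). The endothelial list median above the wild-type mean lay between -0.25 and -0.09 on the Pbrm1 mutant arrays, between -0.05 and 0.04 in wild type, between 0.27 and 0.49 on Vhl mutant arrays and between 0.13 and 0.33 on double mutant arrays. Their part in the result was not tested. B cell markers had 0 of 8 called between Pbrm1 mutants and wild type, with a list median between -0.04 and 0.10 in Pbrm1 mutants and between -0.12 and 0.06 in wild type. Of all genes, 2.45% fell in Pbrm1 mutants against wild type.

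The ITAM adaptor Tyrobp (DAP12) pairs with Trem2 and other receptors of myeloid cells. Tyrobp was 5.78, 5.60, 5.54 and 5.42 in wild type, 5.99, 5.91, 5.99 and 6.17 in the Vhl mutants, 5.60, 5.64, 5.45 and 5.69 in the Pbrm1 mutants and 6.12, 6.06, 6.15 and 6.47 in double mutants. It rose by 0.43 ± 0.11 in Vhl mutants (adjusted p = 0.0259; 0.0502 to 0.0669 without wild-type replicate 3 or 4 or Vhl mutant replicate 3 or 4) and by 0.62 ± 0.11 in double mutants (adjusted p = 0.000398). Trem2, a lipid-sensing receptor of tissue macrophages, was at 0.32 ± 0.12 and 0.20 ± 0.12 and passed the test in no comparison.

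Among the 3 scavenger receptors the mannose receptor Mrc1 (CD206) stood apart. It was 4.93, 5.18, 5.04 and 5.11 in wild type, 5.92, 5.41, 6.01 and 5.57 when Vhl was deleted, 5.14, 4.74, 5.05 and 5.06 when Pbrm1 was and 6.26, 5.98, 5.97 and 6.23 when both were, so both Vhl-deficient groups were clear of the others. It rose by 0.67 ± 0.14 (1.59-fold, adjusted p = 0.00683) in Vhl mutants and by 1.05 ± 0.14 (2.08-fold, adjusted p = 1.82e-05) in double mutants. The haemoglobin-haptoglobin receptor Cd163 had group means of 3.78 in wild type, 3.95 in Vhl mutants, 3.85 with Pbrm1 deleted and 3.86 with both deleted, just above background, and passed no test. Msr1, the class A scavenger receptor, had means from 2.79 in wild type to 3.17 in double mutants, all below background. It is counted among the 24 genes that rose in double mutants (adjusted p = 0.0496), a call that was lost without any 1 of 10 arrays (wild-type replicates 1, 2 and 4, Vhl mutant replicates 2 and 4, Pbrm1 mutant replicates 3 and 4, and double mutant replicates 1, 3 and 4; adjusted p up to 0.153).

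The phagocyte oxidase was represented by its membrane and cytosolic subunits. Cybb, the catalytic subunit gp91phox, was 6.48, 6.53, 6.08 and 6.17 in wild type, 7.14, 6.80, 7.29 and 7.13 in Vhl mutants, 6.16, 6.26, 5.78 and 6.08 with Pbrm1 deleted and 7.05, 6.94, 7.28 and 7.56 with both deleted, and rose by 0.78 ± 0.14 (adjusted p = 0.00318) and 0.91 ± 0.15 (adjusted p = 0.000186). Ncf1, the cytosolic organizer p47phox, was at 0.24 ± 0.12 and 0.25 ± 0.12 and was not called against wild type. Of the 8 other oxidase genes measured, only Rac2, the small GTPase of blood cells that completes the active enzyme, rose in Vhl mutants (0.54 ± 0.12, adjusted p = 0.0102) and in double mutants (0.64 ± 0.12, adjusted p = 0.000757). The share of all genes that rose was 2.04% in Vhl mutants and 6.64% in double mutants. Nox4, the oxidase of tubule cells, fell by 0.49 ± 0.12 from Vhl to double mutants (adjusted p = 0.0122; 0.103 with arrays averaged per description number).

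Receptors for bacterial products rose in both groups. Cd14, the coreceptor that passes lipopolysaccharide to Toll-like receptor 4, was 4.87, 4.48, 4.58 and 4.51 in wild type, 5.98, 5.20, 5.38 and 5.38 in the Vhl mutants, 4.98, 5.11, 4.71 and 5.15 in the Pbrm1 mutants and 6.06, 6.08, 6.13 and 5.99 in double mutants. Every double mutant array was above every other array, and Cd14 had the largest difference of the 34 genes between double mutants and wild type, 1.45 ± 0.15 (2.73-fold, adjusted p = 1.19e-06). In Vhl mutants it rose by 0.87 ± 0.15 (adjusted p = 0.00179), and in Pbrm1 mutants it was at 0.37 ± 0.15 (adjusted p = 0.202). Ly86 (MD-1), the partner of the Toll-like receptor homologue RP105, was 6.30, 6.68, 6.25 and 6.18 in wild type and 6.33, 6.20, 6.21 and 6.20 in Pbrm1 mutants against 7.22, 7.09, 7.42 and 6.96 in Vhl mutants and 7.32, 7.37, 7.25 and 7.49 in double mutants. It rose by 0.82 ± 0.11 (adjusted p = 0.000172) and 1.01 ± 0.11 (adjusted p = 2.77e-06). The costimulatory ligand Cd86 was at 0.32 ± 0.12 in Vhl mutants and 0.34 ± 0.12 in double mutants (adjusted p = 0.0765, 0.0273 without double mutant replicate 4) and was called in neither.

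Classical surface and cytoskeletal markers did not pass the test in either group, 0 of 3, where 2.04% (Vhl mutants) and 6.64% (double mutants) of all genes rose. Adgre1, an adhesion receptor long used as the surface antigen of mouse macrophages, was 5.24, 4.99, 5.16 and 4.54 in wild type, 6.25, 5.41, 5.24 and 5.27 when Vhl was deleted, 4.38, 4.61, 4.77 and 5.09 when Pbrm1 was and 5.32, 5.30, 5.21 and 5.71 when both were. The Vhl and double mutant arrays were at 5.21 or above and the wild-type arrays at 5.24 or below. The differences from wild type were 0.56 ± 0.21 (adjusted p = 0.165) and 0.41 ± 0.21 (adjusted p = 0.257). Aif1 (IBA1), an actin-bundling protein of macrophages, was at 0.30 ± 0.14 and 0.13 ± 0.14. Lst1, a small leukocyte transmembrane protein, had group means between 3.41 and 3.68, below background.

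Growth factors and lineage genes gave 0 of 4 calls in Vhl mutants and 3 of 4 in double mutants, where 2.04% and 6.64% of all genes rose. Between double and Vhl mutants, only Il34 of the 4 passed the same test. There Csf1 was at 0.29 ± 0.13 (adjusted p = 0.218), Spi1 at 0.34 ± 0.14 (adjusted p = 0.173) and Csf1r at 0.24 ± 0.12 (adjusted p = 0.273). Csf1r itself was above background in every group, at 7.98, 7.95, 7.59 and 7.76 in wild type, 7.96, 7.90, 7.73 and 7.48 in Vhl mutants, 7.70, 7.49, 7.86 and 7.97 with Pbrm1 deleted and 8.08, 8.14, 7.88 and 7.94 with both deleted. Its difference from wild type was -0.05 ± 0.12 in Vhl mutants (95% interval -0.30 to 0.19) and 0.19 ± 0.12 in double mutants (-0.06 to 0.43), and all 4 groups overlapped. Csf1, the growth factor made by tubule, stromal and endothelial cells, was 5.74, 5.78, 5.67 and 5.86 in wild type, 6.22, 5.91, 5.76 and 5.86 in the Vhl mutants, 5.16, 5.43, 5.55 and 5.48 in the Pbrm1 mutants and 6.37, 6.47, 5.93 and 6.14 in double mutants. It rose by 0.46 ± 0.13 in double mutants (adjusted p = 0.0202; 0.0521 to 0.0634 without wild-type replicate 3 or double mutant replicate 1 or 2). The Pbrm1 mutant arrays were all below wild type, by 0.36 ± 0.13, which did not pass the test (adjusted p = 0.135).

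Il34, the other ligand of Csf1r, which kidney tubule cells make, varied with the description number, most widely in wild type. It was 7.07, 7.34, 6.15 and 6.16 in wild type, 6.42, 6.68, 5.99 and 6.29 when Vhl was deleted, 6.89, 7.01, 7.40 and 7.32 when Pbrm1 was and 7.17, 7.26, 7.94 and 8.05 when both were. Both wild-type arrays of one number were above both of the other, so the wild-type range overlapped those of all 3 mutant groups. The arrays of the 2 numbers were also apart in Vhl mutants and in Pbrm1 mutants, by less. The model used 1 block correlation for all genes (0.0838), so the SE and p-values of Il34 may be too small. In double mutants it rose by 0.95 ± 0.25 over wild type (adjusted p = 0.0148) and by 1.28 ± 0.25 over Vhl mutants (2.43-fold, adjusted p = 0.00263), where no array of the groups overlapped. The call against wild type was lost without wild-type replicate 3 or 4 or double mutant replicate 4 (adjusted p between 0.0501 and 0.0736), and without wild-type replicates 3 and 4 together the difference was 0.41 (adjusted p = 0.322). Without wild-type replicates 1 and 2 together, Pbrm1 mutants were 1.0 above wild type (adjusted p = 0.0225) in place of 0.48 (adjusted p = 0.361).

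Spi1, which encodes PU.1, was 5.26, 5.43, 5.67 and 5.43 in wild type, 6.20, 5.95, 5.68 and 5.46 in Vhl mutants, 5.53, 5.41, 5.71 and 5.48 with Pbrm1 deleted and 5.95, 6.22, 6.27 and 6.19 with both deleted. All double mutant arrays were above all wild-type arrays, with a rise of 0.71 ± 0.14 (1.63-fold, adjusted p = 0.00135). In Vhl mutants the values ran from the wild-type range upwards, with a difference of 0.37 ± 0.14 (adjusted p = 0.15; 0.0437 without replicate 4, the lowest). Of the 13 other genes of growth factor signalling and myeloid lineage control, 1 rose in Vhl mutants, Irf8, a factor of monocyte development, by 0.40 ± 0.11 (adjusted p = 0.0499, up to 0.12 and not called without any 1 array except wild-type replicate 2 and Pbrm1 mutant replicates 1 and 4). In double mutants 2 rose and 1 fell, where 6.64% of all genes rose and 5.56% fell (2.04% and 1.79% in Vhl mutants). Runx1, a factor of blood cell development, rose by 1.04 ± 0.12 (adjusted p = 5.46e-06). Egr2, which is induced downstream of Csf1r, rose by 0.48 ± 0.12 (adjusted p = 0.00856).

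PU.1 binds purine-rich letters of the form GAGGAAGT, and 23 of the 34 genes have a promoter window in RefSeq (GRCm38.p6, 25 windows of 250 bases before to 50 after a transcription start). These letters, on either strand, were in 3 of the 25 windows (12%) and in 3.2% of all 32851 windows. The 3 stretches shown, of Ctss, Cd53 and Fcgr4, are all those of the 34 genes with a match, whatever their expression. Each runs from 150 bases before to 30 bases after the start, on the strand of the gene, with capitals for the reverse complement of the PU.1 letters. They lie at chr3:95526636-95526815 on the plus strand for Ctss, at chr3:106790120-106790299 on the minus strand for Cd53 and at chr1:171018776-171018955 on the plus strand for Fcgr4.
Ctss: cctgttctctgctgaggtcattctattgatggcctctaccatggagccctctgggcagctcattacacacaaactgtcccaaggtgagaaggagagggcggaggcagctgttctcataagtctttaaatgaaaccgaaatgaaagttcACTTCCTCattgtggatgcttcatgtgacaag
Cd53: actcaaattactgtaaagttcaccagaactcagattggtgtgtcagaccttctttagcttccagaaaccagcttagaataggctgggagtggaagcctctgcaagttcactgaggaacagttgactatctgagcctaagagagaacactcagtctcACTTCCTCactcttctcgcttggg
Fcgr4: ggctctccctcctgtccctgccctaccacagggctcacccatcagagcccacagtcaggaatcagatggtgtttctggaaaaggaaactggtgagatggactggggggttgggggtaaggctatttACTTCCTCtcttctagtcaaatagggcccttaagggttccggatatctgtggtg
The letters begin 2 bases before the start in Ctss, 7 bases after it in Cd53 and 24 bases before it in Fcgr4. ACGTG, the core letters bound by hypoxia-inducible factors, were in 1 of the 25 windows (4%), that of Cd163, and in 19.6% of all windows. A match describes the letters of a window and does not show that a factor binds there.

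**Figure D3:**
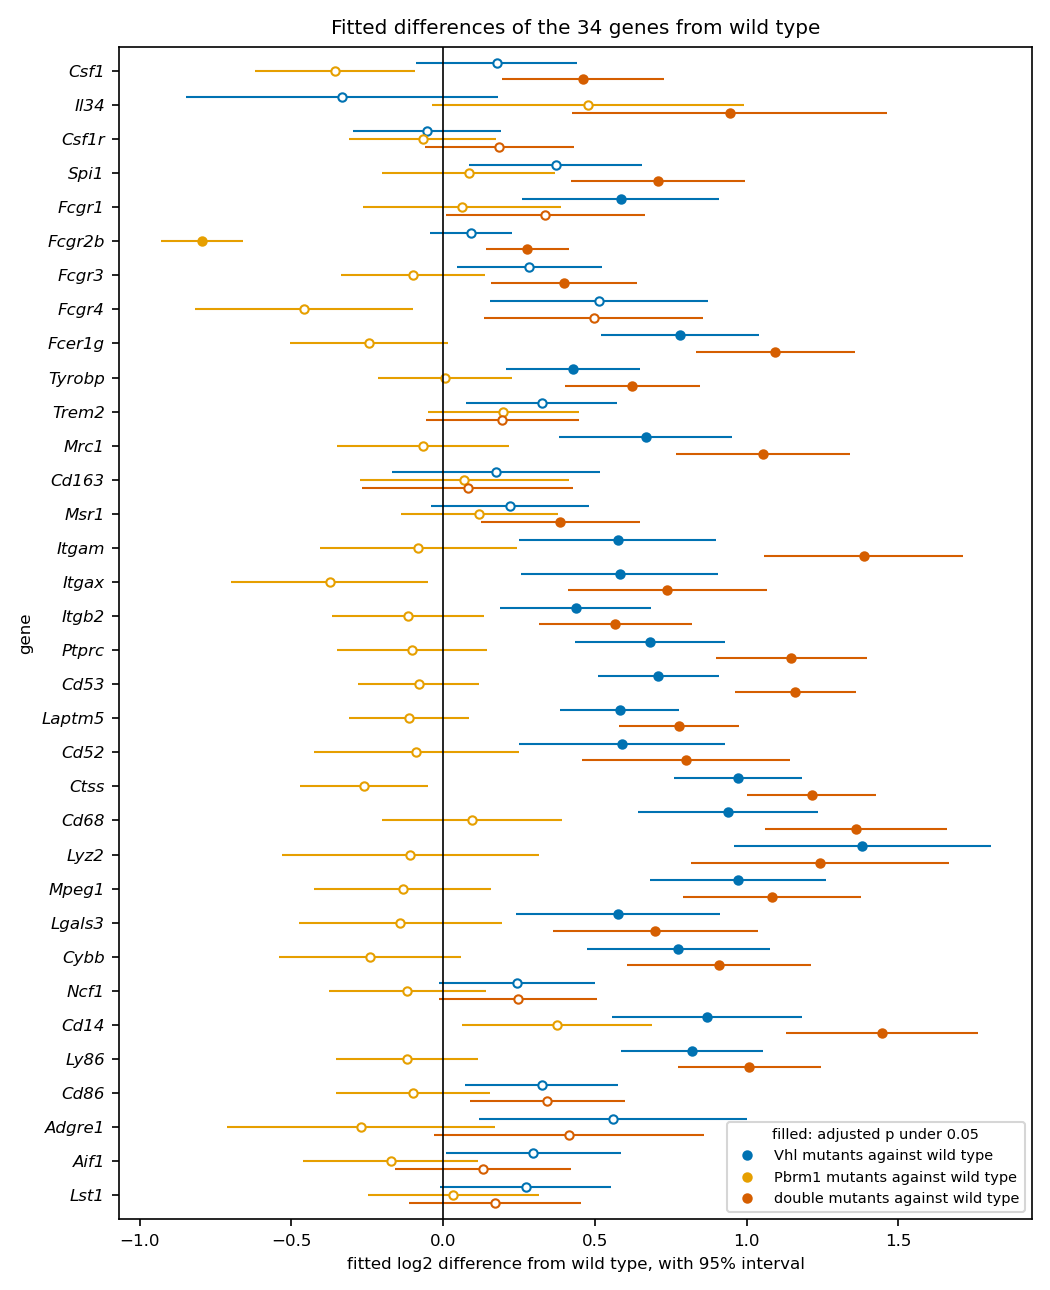
Log2 difference from wild type of each of the 34 genes in Vhl, Pbrm1 and double mutants, with 95% intervals; filled points passed the test (limma, adjusted p under 0.05) and open points did not. Colours mark the comparison. The filled points of Vhl mutants (19) and double mutants (24) lie right of 0, and Fcgr2b is the 1 filled point of Pbrm1 mutants, left of 0.

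The fitted difference between double and Vhl mutants was above 0 for 26 of the 34 genes. It passed the test as higher for 5 and as lower for 0 of the 34, where 3.8% of all genes rose and 2.55% fell. The 5 were Il34, Itgam by 0.81 ± 0.16 (1.75-fold, adjusted p = 0.00259), Cd14 by 0.58 ± 0.15 (adjusted p = 0.0242), Ptprc by 0.47 ± 0.12 (adjusted p = 0.0207) and Cd53 by 0.45 ± 0.10 (adjusted p = 0.00548). The median over the 34 genes was 0.18, and the arrays of 7 genes did not overlap with the double mutants higher, against 7.55% of all genes. Cd14 lost its call without Vhl mutant replicate 2, 3 or 4 or double mutant replicate 3 (adjusted p up to 0.09), and Ptprc without Vhl mutant replicate 3 or double mutant replicate 4 (up to 0.0873). Without the 4 arrays of raised fat markers, which leaves 2 double mutant arrays, 2 of the 34 genes were called. Lyz2, Mpeg1, Cybb, Itgb2 and Lgals3 did not pass, with differences from -0.14 to 0.13 and standard errors from 0.12 to 0.20.

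The Vhl-deficient groups were also set against Pbrm1 mutants, whose labels name the same strains, in shares that may differ. Against Pbrm1 mutants 25 of the 34 genes rose in double mutants and 0 fell, where 6.82% of all genes rose and 3.37% fell. The arrays of 27 did not overlap with the double mutants higher (9.71% of all genes). In Vhl mutants 26 rose against Pbrm1 mutants and 1, Il34, fell (4.71% and 2.75% of all genes), and the arrays of 26 did not overlap with the Vhl mutants higher (7.48%). With arrays averaged per description number 18 of these 27 calls remained, and those of Adgre1, Aif1, Cd52, Cd86, Fcgr1, Fcgr3, Itgb2, Tyrobp and Il34 were lost (adjusted p from 0.0546 to 0.206). Ctss differed most clearly, by 1.48 ± 0.10 (2.78-fold, adjusted p = 4.48e-09) for double and by 1.23 ± 0.10 (2.35-fold, adjusted p = 7.67e-08) for Vhl mutants. Itgam was 2.76-fold and Fcer1g 2.53-fold higher in double than in Pbrm1 mutants. Genes that were not called against wild type passed here, Adgre1 by 0.83 ± 0.21 (adjusted p = 0.017; 0.0511 without Vhl mutant replicate 1 and 0.0603 without Pbrm1 mutant replicate 1) and Csf1 by 0.53 ± 0.13 (adjusted p = 0.0106) in Vhl mutants. Il34 was 0.81 ± 0.25 lower in Vhl than in Pbrm1 mutants, at the threshold (adjusted p = 0.05 after rounding; up to 0.147 and not called without wild-type replicate 1, Vhl mutant replicate 1, 3 or 4 or any Pbrm1 mutant array). Cd163, Csf1r, Lst1, Ncf1 and Trem2 passed in none of the 6 comparisons between groups.

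Whether the loss of both genes did more than the sum of the single losses was tested by the interaction, which takes both single differences from wild type off that of the double mutants. Its value was above 0 for 29 of the 34 genes. It passed the test above 0 for 3 of the 34 and below 0 for none, where 1.78% and 0.852% of all genes passed. Fcgr2b had the largest, 0.98 ± 0.09 (adjusted p = 3.69e-06), with its low level in Pbrm1 mutants and its highest in double mutants, and the call held without any 1 array. Itgam had 0.89 ± 0.22 (adjusted p = 0.0338) and Cd53 0.53 ± 0.14 (adjusted p = 0.0385). The call of Itgam was lost without any 1 of 12 arrays, all except wild-type replicates 1 and 3, Vhl mutant replicate 1 and double mutant replicate 2 (adjusted p up to 0.0771). That of Cd53 was lost without any 1 of 9 arrays, which were wild-type replicate 2, Vhl mutant replicates 2, 3 and 4, Pbrm1 mutant replicates 1 and 3 and double mutant replicates 1, 2 and 4 (up to 0.0775).

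Other macrophage genes, a list of 40 of which 38 were measured, moved in the same direction. In Vhl mutants 15 rose and 0 fell, in double mutants 21 rose and 0 fell, and in Pbrm1 mutants only Cx3cr1 was called. Over all genes 2.04% rose in Vhl mutants, 6.64% in double mutants and 1.59% in Pbrm1 mutants. The inhibitory receptor Lilrb4a rose by 0.79 ± 0.13 in Vhl and 1.28 ± 0.14 in double mutants, and the endosomal nuclease Pld4 by 0.62 ± 0.12 and 1.07 ± 0.12. Alox5ap, which presents arachidonic acid for leukotriene synthesis, rose by 0.54 ± 0.11 and 0.84 ± 0.11. Unc93b1, the chaperone of endosomal Toll-like receptors, rose by 0.49 ± 0.10 and 0.80 ± 0.10.

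The complement genes that tissue macrophages make differed from most of the 34 genes in that their highest level was in Vhl mutants. C1qb was 7.32, 7.39, 7.23 and 7.18 in wild type, 8.43, 8.11, 7.95 and 7.89 in the Vhl mutants, 6.91, 6.92, 6.89 and 6.58 in the Pbrm1 mutants and 7.65, 7.38, 6.99 and 7.59 in double mutants. It rose by 0.82 ± 0.14 in Vhl mutants (adjusted p = 0.00135) and was 0.69 ± 0.14 lower in double than in Vhl mutants (adjusted p = 0.00335), with all 4 double mutant arrays below all 4 Vhl mutant arrays. C1qa rose by 0.66 ± 0.12 in Vhl mutants (adjusted p = 0.00312) and was at 0.37 ± 0.12 in double mutants (adjusted p = 0.0539; called, down to 0.0203, without wild-type replicate 2, Pbrm1 mutant replicate 2 or double mutant replicate 1). C1qc, named after its values were seen, was 0.52 ± 0.15 lower in double than in Vhl mutants (adjusted p = 0.044, up to 0.128 without any 1 of 8 arrays: Vhl mutant replicates 1 to 3, Pbrm1 mutant replicates 2 and 3 and double mutant replicates 2 to 4).

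Cx3cr1, the fractalkine receptor of kidney macrophages and patrolling monocytes, was 6.16, 5.96, 6.15 and 6.18 in wild type, 6.96, 6.94, 6.58 and 6.67 when Vhl was deleted, 6.57, 6.51, 6.45 and 6.42 when Pbrm1 was and 6.52, 6.54, 6.44 and 6.61 when both were. It rose in all 3, by 0.68 ± 0.09, 0.37 ± 0.09 (adjusted p = 0.0218; 0.0503 to 0.0676 without wild-type replicate 2 or Pbrm1 mutant replicate 1 or 2) and 0.42 ± 0.09, and its interaction was -0.63 ± 0.13 (adjusted p = 0.011). Sirpa, the inhibitory receptor for CD47, and the Src family kinase Fgr went the other way. Sirpa was at -0.04 ± 0.09 in Vhl mutants and rose by 0.48 ± 0.09 in double mutants (interaction 0.56 ± 0.13, adjusted p = 0.0209), and Fgr was at 0.13 ± 0.14 and rose by 0.74 ± 0.14 (interaction 0.81 ± 0.20, adjusted p = 0.0345, up to 0.0779 without any 1 of 10 arrays: wild-type replicates 1 and 4, Vhl mutant replicates 2 to 4, Pbrm1 mutant replicates 1 to 3 and double mutant replicates 3 and 4).

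Some monocyte markers rose in double mutants, where 6.64% of all genes rose, against 2.04% in Vhl mutants. Ccr2, the chemokine receptor by which monocytes leave the bone marrow, was 4.69, 4.73, 4.89 and 4.76 in wild type, 5.34, 5.15, 5.69 and 5.48 in Vhl mutants, 5.08, 4.88, 4.91 and 5.02 with Pbrm1 deleted and 5.88, 5.60, 6.42 and 6.39 with both deleted. Its difference from wild type was 0.65 ± 0.16 in Vhl mutants (adjusted p = 0.0253; 0.0544 to 0.0827 without wild-type replicate 1 or 2 or Vhl mutant replicate 3) and 1.32 ± 0.16 in double mutants (adjusted p = 8.33e-06). Double mutants exceeded Vhl mutants by 0.67 ± 0.16 (adjusted p = 0.0132; 0.0509 without Vhl mutant replicate 2 and 0.0674 without double mutant replicate 4). Plac8 was 4.96, 5.24, 5.02 and 4.93 in wild type, 5.81, 5.40, 5.85 and 5.70 in the Vhl mutants, 4.96, 5.19, 4.79 and 5.16 in the Pbrm1 mutants and 6.28, 6.09, 6.32 and 6.69 in double mutants, with 0.67 ± 0.14 between double and Vhl mutants (adjusted p = 0.00468). Of the 10 monocyte genes measured 2 rose in Vhl mutants and 4 in double mutants, the others being Nr4a1 (1.18 ± 0.16), a factor of patrolling monocytes that many cells induce, and S100a4 (0.55 ± 0.16, adjusted p = 0.025, up to 0.111 without wild-type replicate 1 or 3 or double mutant replicate 1, 2 or 4). The difference of double mutants from wild type was above 0 for 7 of the 10, and 6 were not called. These included Ly6c2, with a mean of 5.52 in wild type and 5.85 in double mutants. Gda, Cd177 and Ms4a4c had lower means in double mutants than in wild type. In Pbrm1 mutants 1 of the 10 fell, where 2.45% of all genes fell, and Gda had a mean of 4.97 against 5.69 in wild type.

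**Figure D4:**
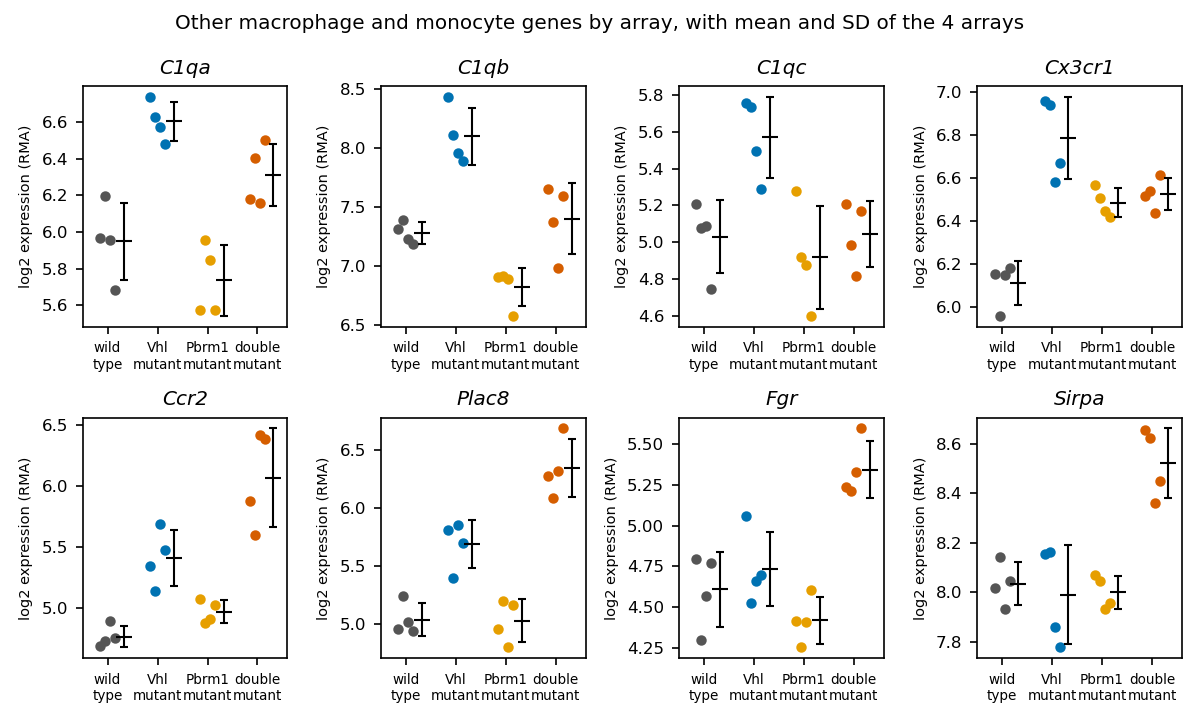
Log2 values of 8 genes outside the 34 on each array, 1 panel a gene, with genotypes on the horizontal axis, points for arrays and a bar for the mean and SD of the 4 arrays of a group. C1qa, C1qb, C1qc and Cx3cr1 are highest in Vhl mutants, and Ccr2, Plac8, Fgr and Sirpa in double mutants.

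Further lists fixed for this comparison moved less. Against wild type 2.04% of all genes rose and 1.79% fell in Vhl mutants, and 6.64% and 5.56% in double mutants. Of 18 genes of Fc and ITAM signalling, 3 rose in Vhl mutants and 6 in double mutants, and 0 fell. They included Lcp2, the SLP-76 adaptor, by 0.65 ± 0.12 and 0.63 ± 0.12, and Inpp5d, the SHIP1 phosphatase that acts for Fcgr2b, by 0.57 ± 0.14 (adjusted p = 0.0204, 0.0661 without Vhl mutant replicate 1) and 0.76 ± 0.14. Pigr, on the same list, is the polymeric immunoglobulin receptor of epithelium. It rose in all 3 mutant groups, by 0.71 ± 0.15, 1.38 ± 0.15 and 1.94 ± 0.16. Among 11 resident macrophage genes 2 rose in Vhl mutants and 2 in double mutants, and Apoe, which tubule cells also make, was 1 of them both times (0.43 ± 0.11, adjusted p = 0.0343, up to 0.108 without wild-type replicate 1 or 3 or Vhl mutant replicate 1, 3 or 4; and 0.87 ± 0.11). Among 20 genes of scar and lipid macrophages 2 rose and 0 fell in Vhl mutants and 5 rose and 3 fell in double mutants. The difference of double mutants from wild type was above 0 for 13 of the 20. Means were lower in double mutants than in wild type for Plin2 (7.19 against 8.47), Lpl (9.98 against 10.85) and Ctsl (9.81 against 10.19), among others. The macrophage elastase Mmp12, near background in wild type (mean 3.88), rose by 0.50 ± 0.12 (adjusted p = 0.0209, 0.063 without wild-type replicate 2 and 0.0673 without Vhl mutant replicate 1) and 0.91 ± 0.12.

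Few markers of other blood cells passed the test. Of 15 neutrophil, 12 T cell, 8 B cell, 8 NK cell and 8 mast cell genes, 0 were called in Vhl mutants against wild type. An unadjusted p under 0.05 was reached, all with higher values, by 1, 4, 2, 2 and 1 of them in that order. Over all 22180 genes, 1659 were higher and 1979 lower at that p, and 2.04% rose and 1.79% fell by the adjusted test. Background lay above the 16-array mean of 5 neutrophil, 1 T cell, 1 B cell, 4 NK cell and 7 mast cell genes. A change in these dim genes could be missed. In double mutants 1 of the 15 neutrophil genes (Il1b, which macrophages also make) and 1 of the 8 mast cell genes (Cpa3) rose. Of the T, B and NK cell genes 0 were called, where 6.64% of all genes rose and 5.56% fell. At an unadjusted p under 0.05, 2 T cell genes were higher and 1 lower in double mutants, and 0 B or NK cell genes passed. Over all 22180 genes, 2623 were higher and 2569 lower at that p. The neutrophil list median above the wild-type mean was between 0.03 and 0.08 on Vhl mutant arrays and between -0.11 and 0.03 on double mutant arrays. Of its defining genes, S100a8 lay below background at 2.52 to 3.08 over the 16 arrays, and Ly6g, at 3.48 to 4.04, and S100a9, with group means from 3.77 to 4.05, lay near it. The T cell median lay between 0.06 and 0.17 on the Vhl mutant arrays and between -0.05 and 0.21 on those of double mutants, the B cell median between 0.00 and 0.25 and between -0.04 and 0.14, and the NK cell median between 0.04 and 0.20 and between -0.03 and 0.05, with wild-type arrays from -0.14 to 0.06 over these lists. Of 11 dendritic cell genes 0 were called in Vhl mutants, 1 rose in Pbrm1 mutants (1.59% of all genes) and 3 rose in double mutants (6.64%).

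**Figure D5:**
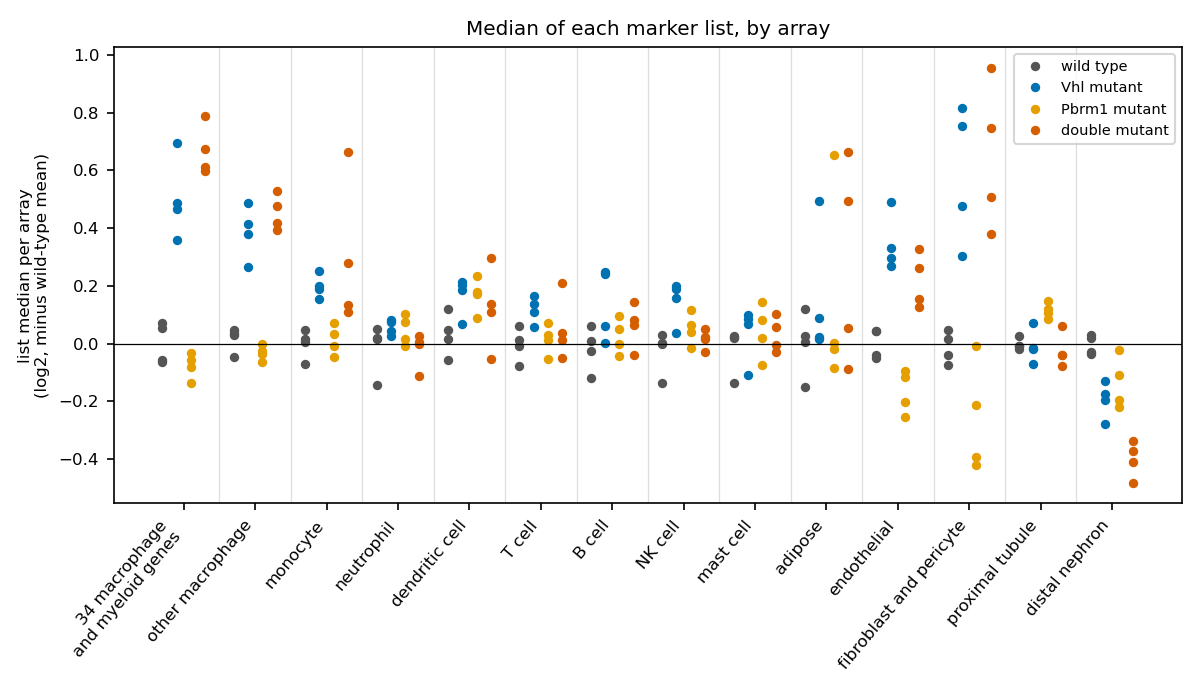
Median over each marker list of the log2 value minus the wild-type mean, 1 point an array, with lists on the horizontal axis and colours for genotype. The 34 macrophage genes and the other macrophage list stand at 0.27 to 0.79 in Vhl and double mutants, the lists of lymphoid cells, neutrophils and mast cells stay between -0.14 and 0.25, and fibroblast and endothelial lists are raised in the same arrays as the macrophage genes.

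Stromal and vascular markers moved with the macrophage genes. Of all genes, 2.04% rose and 1.79% fell in Vhl mutants, and 6.64% and 5.56% in double mutants. Fibroblast and pericyte genes rose for 6 of 12 in Vhl mutants and 8 of 12 in double mutants, with list medians between 0.30 and 0.82 and between 0.38 and 0.96 on the arrays, between -0.42 and -0.01 in Pbrm1 mutants and between -0.07 and 0.05 in wild type. Endothelial genes rose for 6 of 14 in Vhl mutants and 5 of 14 in double mutants, Cdh5 by 0.58 ± 0.09 and 0.52 ± 0.09 and Emcn by 0.57 ± 0.07 and 0.57 ± 0.07. Distal nephron genes fell for 4 of 12 in Vhl mutants and 9 of 12 in double mutants, and proximal tubule genes for 0 and 3 of 12. Their part in the levels of the 34 genes was not tested. Fat markers were not raised on 3 Vhl mutant arrays and on double mutant replicates 1 and 4, and on these the median of the 34 genes was 0.36 to 0.69 and 0.68 to 0.79 above wild type. This split of arrays was made after the data were seen, and the part of fat tissue was not tested.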

How the data were processed

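Per the labels' protocols, kidney cortex RNA was biotin-labelled and put on Affymetrix mouse arrays. The authors deposited log2 values, which the submitters' processing notes trace to Expression Console 1.4 and its RMA (robust multichip average) method. The build behind the array's design is not given in the sources used here. Of 41345 probe sets, 23521 had 1 gene symbol, and for the 1082 genes with several the one with the highest mean stood for the gene, giving 22180 genes; 1814 probe sets with several symbols and 16010 that the annotation does not list were left out. Each of the 34 genes had 1 probe set. RMA pulls low values together, so differences of dim genes are understated.

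All 16 arrays and all genes entered 1 linear model (limma 3.58.1, R 4.3.3), with the 4 genotype groups of the labels and the description number as a random block (estimated correlation 0.0838). The empirical Bayes prior followed mean expression. Genes past a p of 0.05, adjusted over all genes by Benjamini and Hochberg's method, were called in each of 7 comparisons. Differences are the model's; it gives double mutant replicate 4, alone under its number, more weight than a plain mean would. Double mutant replicates 2 and 3 carry the same description label; they were not closer than other pairs and were kept as separate arrays. The SD of the difference between 2 arrays over all genes was 0.21 to 0.251 for other pairs of 1 number and 0.24 to 0.292 for pairs of different numbers. Double mutant replicate 3 was at 0.273 and 0.269 from replicates 1 and 2 of its own number and at 0.228 from replicate 4. Precision is limited by how many arrays there are, or by how many animals if arrays share one, which the labels do not say.

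The 34 genes and the further lists were chosen with earlier results of these data known. All of the 34 were described by role. Of every other list up to 4 called genes of smallest p per comparison, and of cell type lists up to 3 of highest mean, were open to naming; C1qc was added. Replicate numbers did not pair the arrays: deviations of like-numbered arrays correlated between -0.074 and 0.059, and 0 of 6 pairs of groups had all over 0.1. Alternatives were no block, averaging per description number, blocking on the replicate number, other handling of probe sets, filters, scalings and weights, and leaving out each array or number. Promoter letters were searched in RefSeq windows.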

Additional observations from a re-analysis of the deposited data

Results flagged for a closer look

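Of 168 sets of 4 arrays tested (42 genes in 4 groups), 7 had an array whose gap to its nearest neighbour, as a share of the range, exceeded Dixon's 95% critical value, where chance gives about 1 in 20. These were Adgre1 at 6.25 and Fcgr4 at 4.98 in Vhl mutant replicate 1, Fcgr3 at 4.85 and Cx3cr1 at 5.96 in wild-type replicate 2, Itgax at 5.72 in Vhl mutant replicate 3, Ly86 at 6.33 in Pbrm1 mutant replicate 1 and C1qb at 6.58 in Pbrm1 mutant replicate 4.

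By the interaction test (limma, adjusted p under 0.05) the effect of losing one gene differed with the state of the other for 394 genes with a value above 0 and 189 below 0. On the log2 scale it was 0.98 for Fcgr2b, 0.89 for Itgam and 0.53 for Cd53 among the 34 genes. Of other genes described above it was 0.81 for Fgr, 0.72 for Cpa3, 0.56 for Sirpa, -0.63 for Cx3cr1 and -0.62 for Nox4; further members of the marker lists that passed are not described. The call of Nox4 was lost without any 1 of 13 arrays, all except wild-type replicate 3 and Vhl mutant replicates 1 and 2 (adjusted p from 0.0544 to 0.0893).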

How the results depend on the processing

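Over 36 alternatives (35 for the interaction), no median of the 34 genes changed sign. A count of calls has no sign to change, so for counts only the size is compared. Leaving out 1 array at a time, the number of the 34 genes called ran from 13 to 18 for Vhl mutants against wild type (19 with all arrays), from 21 to 25 for double mutants against wild type (24), from 4 to 7 for double against Vhl mutants (5), from 23 to 26 for double against Pbrm1 mutants (25), from 20 to 27 for Vhl against Pbrm1 mutants (27) and from 1 to 5 for the interaction (3), and stayed at 1 for Pbrm1 mutants against wild type. The median for Vhl mutants against wild type then ran from 0.47 (without Vhl mutant replicate 1) to 0.61, against 0.57.

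With arrays averaged per description number, 11 genes were called in Vhl mutants against wild type, 1 for the interaction and 18 in Vhl against Pbrm1 mutants, and over all genes 246 against 851 in Vhl mutants and 274 against 895 in Pbrm1 mutants. With the replicate number as a block, which does not pair the arrays here, the counts were 19, 1, 25, 5, 24 and 26 for the pairwise comparisons in the order Vhl, Pbrm1 and double against wild type, double against Vhl, double against Pbrm1 and Vhl against Pbrm1, and 4 for the interaction. For the interaction the count was 5 with no block and 1 with no trend in the prior; leaving out wild-type replicates 1 and 2 gave 1, leaving out 3 and 4 gave 7, and it was 1 without Pbrm1 or without Vhl mutant replicates 3 and 4. Leaving out a description number gave 2 calls for Pbrm1 mutants against wild type without wild-type replicates 1 and 2 and also without 3 and 4. It gave 2 for double against Vhl mutants without double mutant replicates 1, 2 and 3 and without Vhl mutant replicates 3 and 4, and 15 for Vhl against Pbrm1 mutants without replicates 1 and 2 of either group. Without the 4 arrays of raised fat markers, an alternative chosen after seeing the data, double against Vhl mutants gave 2. With double mutant replicate 3 under the number of replicate 4, also chosen after seeing the data, the counts were 14 for Vhl and 23 for double mutants against wild type, 22 for Vhl against Pbrm1 mutants and 2 for the interaction.

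Medians moved by more than their spread between arrays without Vhl mutant replicate 1 (above) and in the following cases. A filter on dim genes, which left 27 of the 34, gave 0.82 for double mutants against wild type and 1.07 against Pbrm1 mutants. Without wild-type replicates 3 and 4 the median was 0.58 for double mutants, 0.47 for Vhl mutants and 0.41 for the interaction. It was 0.17 for the interaction without wild-type replicates 1 and 2, 0.43 for Vhl mutants against wild type and 0.54 against Pbrm1 mutants without Vhl mutant replicates 1 and 2, and 0.72 for double against Pbrm1 mutants without Pbrm1 mutant replicates 1 and 2. Without double mutant replicates 1, 2 and 3 it was 0.28 for double against Vhl mutants and 0.39 for the interaction. The cause of these shifts was not tested, beyond the smaller number of arrays or genes in each. Signal over background limits Msr1, Lst1, Cd163 and, in Pbrm1 mutants, Fcgr4. Labelled strain cannot be told apart from genotype in the comparisons with wild type, nor description number in any comparison.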
